A study of Homo sapiens with 6 samples.

Results

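The subunits that define the BAF, PBAF and ncBAF forms of the SWI/SNF chromatin remodeller were followed in Hep3B cells after knockdown of SMARCA4, the ATPase that all of these forms can carry. The members were 10 genes chosen by symbol: ARID1A, ARID1B, DPF1, DPF2 and DPF3 for BAF, ARID2, PBRM1, BRD7 and PHF10 for PBAF, and BRD9 for ncBAF. All 10 were found, once each, among the 57773 genes of the deposited table. Of the 8 members with a mean of at least 1 FPKM (reads scaled by gene length and library depth), ARID2 was called higher in si-SMARCA4 cells, ARID1B and PHF10 were called lower, and 5 were not called. These 3 are 37.5% of the 8, below the 56.0% of all genes tested that were called (22.4% higher and 33.6% lower). With median-ratio, upper-quartile or quantile scaling of the libraries alone, ARID2 was still called higher and 0 members were called lower. ARID2 lost its call when any single library other than replicate 2 of the control group (si-Cont) was left out. DPF1 and DPF3, which lay far below 1 FPKM, were called in opposite directions when genes under that level were fitted too. In that fit 25.2% of all genes were called, 14.3% lower and 11.0% higher, and ARID1B and ARID2 were not called.

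SWI/SNF complexes use the energy of ATP to slide or evict nucleosomes and so open DNA to transcription factors. A shared core surrounds the ATPase, which is SMARCA4 or SMARCA2, and each form is told apart by subunits that the others lack. BAF holds ARID1A or ARID1B with a DPF protein, PBAF holds ARID2 with PBRM1, BRD7 and PHF10, and ncBAF holds BRD9 with GLTSCR1 or GLTSCR1L. In liver cancer, ARID1A and ARID2 are among the chromatin genes most often mutated.

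Hep3B is an established line from a human hepatocellular carcinoma. One group of 3 libraries came from cells transfected with si-SMARCA4, an siRNA against SMARCA4, and the other group of 3 from cells transfected with the control siRNA si-Cont. The labels give the same medium for both groups. The sources used here do not give the siRNA sequences, the dose or the time after transfection. Nothing says whether replicates were separate cultures, so the p-values speak only for the spread among these 6 libraries, which may be technical. A transient knockdown in 1 cell line is the whole of the model.

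SMARCA4 had 3.80, 3.78 and 4.01 FPKM in si-SMARCA4 cells, against 15.7, 19.5 and 16.6 FPKM in si-Cont cells, a fall to 22.3% of the si-Cont mean (log2 fold change -1.91, limma adjusted p = 1.63e-08). All 10 hepatocyte and hepatoma markers listed lay above 1 FPKM, with ALB highest. Their summed level was 2429 to 2565 FPKM in si-SMARCA4 libraries and 3359 to 3751 FPKM in si-Cont libraries. That sum was carried by ALB, at 1384 to 1477 FPKM in si-SMARCA4 and 2087 to 2404 FPKM in si-Cont. In all, 6 of the list lay lower in si-SMARCA4 without overlap and 3 lay higher, namely SERPINA1, TTR and FGB. None of the 6 immune and 4 endothelial markers reached 1 FPKM, and VWF, CDH5, KDR and MS4A1 were listed at 0 in every library. The immune sum was 0.460 to 0.580 FPKM in si-SMARCA4 and 0.245 to 0.280 FPKM in si-Cont, and the endothelial sum was at most 0.00686 FPKM. Of 6 fibroblast markers only LUM reached 1 FPKM, and the summed level of the list was 11.6 to 12.0 FPKM in si-SMARCA4 libraries and 7.61 to 8.58 FPKM in si-Cont libraries. LUM made up the higher sum, while COL1A1 and PDGFRB lay lower in si-SMARCA4 without overlap. The part of these marker differences in the results was not tested. Reads assigned to genes numbered 19084239 to 22719002, or 63.6% ± 0.717 of the FPKM denominator in si-SMARCA4 and 68.0% ± 2.15 in si-Cont (SD, n = 3 each). One library stood apart: the second principal component, with 8.58% of the variance, placed si-Cont replicate 2 at -11.0 and the other 5 libraries between -1.83 and 5.70.

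Each gene's values on the log2(FPKM + 1) scale were compared by limma's moderated test across all 11123 genes with a mean of at least 1 FPKM, two-sided, with Benjamini-Hochberg adjustment and a threshold of 0.05. On this scale changes of low genes are understated. In these bulk libraries fewer cells that express a gene and less of its RNA per cell cannot be told apart. Of the 8 members tested, 3 (37.5%) were called, against 56.0% of all genes tested. By direction, 1 member was higher, against 22.4% of all genes, and 2 were lower, against 33.6%. The groups did not overlap for 3 of the 8 members, 1 higher and 2 lower, against 62.3% of all genes, 25.7% higher and 36.6% lower. The median size of the log2 fold change was 0.12 over the 8 members and 0.17 over all genes tested, and the signed medians were -0.082 and -0.043. By complex, 1 of 3 tested BAF members was called, 2 of 4 PBAF members, and 0 of 1 for ncBAF.

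**Figure D1:**
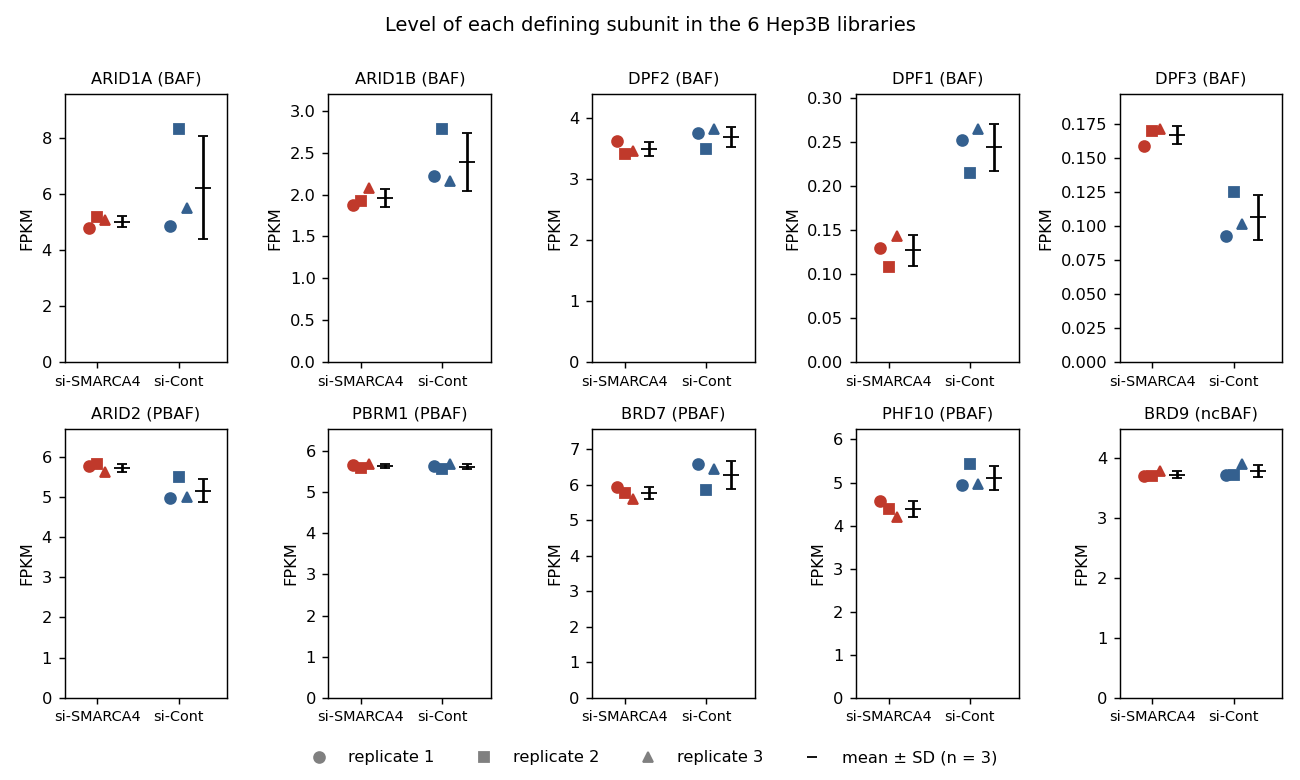
FPKM of the 10 defining subunits in each library, with si-SMARCA4 (red) left of si-Cont (blue), 1 marker shape per replicate number, and the mean ± SD of 3 libraries in black; every axis starts at 0 and has its own range. ARID1A reaches 8.33 FPKM in si-Cont replicate 2 against a highest value elsewhere of 5.51 FPKM, whereas PBRM1 stays between 5.56 and 5.67 FPKM in all 6.

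Among the BAF members, ARID1A (ENSG00000117713), the large ARID-domain DNA-binding subunit, had 4.80, 5.20 and 5.08 FPKM in si-SMARCA4 cells, against 4.87, 8.33 and 5.51 FPKM in si-Cont cells. The groups overlapped, and the high value belonged to si-Cont replicate 2, where ARID1A had 2244 reads against 1435 to 1602 in the other 5 libraries. On the log2(FPKM + 1) scale, its excess in that library over the mean of si-Cont replicates 1 and 3 was 0.59, more than for 99.7% of all genes tested. The log2 fold change was -0.24 (SE 0.13, 95% interval -0.53 to 0.057, limma adjusted p = 0.154), and the exact permutation test gave p = 0.3. It was -0.037 without si-Cont replicate 2 (limma adjusted p = 0.574) and -0.37 without si-Cont replicate 1, where limma called it (adjusted p = 0.0242). With replicate number as a block, ARID1A was also called lower (limma adjusted p = 0.0432), a fit in which 60.8% of all genes were called, 24.4% higher and 36.4% lower.

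ARID1B (ENSG00000049618), the paralog that takes the place of ARID1A in some BAF complexes, had 1.87, 1.93 and 2.07 FPKM in si-SMARCA4 cells, against 2.22, 2.78 and 2.16 FPKM in si-Cont cells. Every si-SMARCA4 value lay under every si-Cont value, and si-Cont replicate 2 was again the highest. The mean fell to 82.1% of si-Cont (log2 fold change -0.19, SE 0.070, 95% interval -0.35 to -0.035, limma adjusted p = 0.0390; exact permutation p = 0.1, the smallest that 3 against 3 libraries can give). The call was lost without si-Cont replicate 2 (-0.11, limma adjusted p = 0.0978), without si-SMARCA4 replicate 1 (-0.17, limma adjusted p = 0.109) or without si-SMARCA4 replicate 2 (-0.18, limma adjusted p = 0.0937). It was also lost when libraries were scaled to a common median ratio (-0.16, limma adjusted p = 0.132), a setting in which 59.1% of all genes were called, 29.2% higher and 29.9% lower.

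The DPF proteins are paralogs with a double PHD finger that reads modified histone tails, and a BAF complex holds one of them. DPF2 (ENSG00000133884), the widely expressed paralog, had 3.63, 3.41 and 3.46 FPKM in si-SMARCA4 cells, against 3.76, 3.50 and 3.82 FPKM in si-Cont cells. The groups overlapped and the difference was not called (log2 fold change -0.061, 95% interval -0.17 to 0.046, limma adjusted p = 0.310). DPF1 (ENSG00000011332), known mainly from neurons, had 0.129, 0.109 and 0.143 FPKM in si-SMARCA4 cells, against 0.253, 0.214 and 0.265 FPKM in si-Cont cells. DPF3 (ENSG00000205683), known from heart and skeletal muscle and from neurons, had 0.159, 0.170 and 0.172 FPKM in si-SMARCA4 cells, against 0.0928, 0.125 and 0.102 FPKM in si-Cont cells.

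Neither group overlapped the other for DPF1 or DPF3, and their order was opposite: DPF3 lay above DPF1 in every si-SMARCA4 library and below it in every si-Cont library. These levels rest on few reads, 17 to 21 for DPF1 in si-SMARCA4 against 30 to 40 in si-Cont, and 36 to 38 for DPF3 in si-SMARCA4 against 21 to 25 in si-Cont. The mean FPKM of DPF1 in si-SMARCA4 was 52.1% of that in si-Cont, and that of DPF3 was 157%. Both were under the filter on low values, and each had an exact permutation p = 0.1. When all 25119 genes with a mean above 0 were fitted, limma called DPF1 lower (log2 fold change of FPKM + 1 of -0.14, adjusted p = 0.00893) and DPF3 higher (0.077, adjusted p = 0.0311), in a fit with 25.2% of all genes called, 14.3% lower and 11.0% higher. With median-ratio scaling as well, both calls stood (-0.13, limma adjusted p = 0.00691, and 0.083, limma adjusted p = 0.0282), against 27.5% of all genes called, 13.3% lower and 14.2% higher. In the same gene set voom on reads gave -0.88 for DPF1 (limma adjusted p = 0.0115) and 0.71 for DPF3 (limma adjusted p = 0.0335), on a log2 scale with no FPKM added, against 30.1% of all genes called, 14.2% lower and 15.9% higher. With no filter and no rescaling, ARID1B and ARID2 were not called (limma adjusted p = 0.147 and 0.0743), whereas PHF10 was called lower (limma adjusted p = 0.0364).

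Among the PBAF members, ARID2 (ENSG00000189079), the ARID-domain subunit of PBAF, had 5.76, 5.81 and 5.62 FPKM in si-SMARCA4 cells, against 4.96, 5.48 and 5.01 FPKM in si-Cont cells. Every si-SMARCA4 value lay above every si-Cont value, though si-Cont replicate 2 came close. The mean was 111% of si-Cont (log2 fold change 0.13, SE 0.049, 95% interval 0.022 to 0.24, limma adjusted p = 0.0417; exact permutation p = 0.1). ARID2 was the one tested member called under each scaling tried, at 0.18 with median-ratio scaling (limma adjusted p = 0.0217), 0.19 with upper-quartile scaling (0.0187), 0.17 with quantile normalization (0.0197) and 0.21 with voom (0.00946). Of all genes, 59.0% were called under upper-quartile scaling (30.8% higher, 28.2% lower), 59.6% under quantile normalization (30.1% higher, 29.5% lower) and 59.9% with voom (29.8% higher, 30.2% lower). Leaving out si-Cont replicate 2 gave 0.17 (limma adjusted p = 0.00469), where 64.2% of all genes were called, 23.6% higher and 40.6% lower, whereas leaving out any other single library gave 0.11 to 0.14 and lost the call.

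PBRM1 (ENSG00000163939), which carries a row of bromodomains that bind acetylated histones, had 5.66, 5.58 and 5.67 FPKM in si-SMARCA4 cells, against 5.62, 5.56 and 5.67 FPKM in si-Cont cells. The groups overlapped throughout, all 6 libraries lay within a narrow band, and the log2 fold change was 0.0038 (95% interval -0.090 to 0.098, limma adjusted p = 0.948). BRD7 (ENSG00000166164), a bromodomain subunit of PBAF, had 5.94, 5.76 and 5.61 FPKM in si-SMARCA4 cells, against 6.57, 5.84 and 6.43 FPKM in si-Cont cells. Only si-Cont replicate 2 overlapped the si-SMARCA4 range (log2 fold change -0.10, 95% interval -0.22 to 0.012, limma adjusted p = 0.115). Without that library BRD7 was called lower (-0.15, limma adjusted p = 0.0112). With median-ratio scaling as well, where 62.5% of all genes were called (30.9% higher, 31.6% lower), it was -0.079 and was not called (limma adjusted p = 0.121). In the annotation, 42.3% of the exonic bases of BRD7 are shared with ADCY7 on the opposite strand, so reads there cannot be assigned without strand. ADCY7 itself stood at 0.266 FPKM in si-SMARCA4 and 0.206 FPKM in si-Cont. Of 6 BRD7 pseudogenes in the table, 5 were listed at 0 and BRD7P2 lay between 0.0156 and 0.0770 FPKM.

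PHF10 (ENSG00000130024), a PBAF subunit with a double PHD finger like that of the DPF proteins, had 4.58, 4.39 and 4.20 FPKM in si-SMARCA4 cells, against 4.93, 5.42 and 4.97 FPKM in si-Cont cells. The groups did not overlap, and the mean fell to 85.9% of si-Cont (log2 fold change -0.18, SE 0.051, 95% interval -0.29 to -0.068, limma adjusted p = 0.0115; exact permutation p = 0.1). This was the smallest adjusted p among the 8 members tested in this fit. The call was lost with median-ratio scaling (-0.14, limma adjusted p = 0.0643), though not when the replicate block was fitted with it (limma adjusted p = 0.0432). It was also lost with upper-quartile scaling (limma adjusted p = 0.101), quantile normalization (0.0520) and voom (0.0590), and without si-SMARCA4 replicate 3 (-0.16, limma adjusted p = 0.0552). The call stood without si-Cont replicate 2 (-0.14, limma adjusted p = 0.0195), but not with median-ratio scaling as well (-0.078, limma adjusted p = 0.156).

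BRD9 (ENSG00000028310), the bromodomain subunit that marks ncBAF, had 3.70, 3.70 and 3.79 FPKM in si-SMARCA4 cells, against 3.72, 3.73 and 3.90 FPKM in si-Cont cells. The groups overlapped, and the log2 fold change was -0.016 (95% interval -0.11 to 0.083, limma adjusted p = 0.785), with the sign turned to 0.027 under median-ratio scaling. The interval does not reach the point estimates for ARID1B or PHF10, but it overlaps their intervals (-0.35 to -0.035 and -0.29 to -0.068). Whether BRD9 differs from them was not tested. The ncBAF partners GLTSCR1 and GLTSCR1L were followed beside it. GLTSCR1, under the filter, had 0.330, 0.316 and 0.405 FPKM in si-SMARCA4 cells, against 0.201, 0.629 and 0.294 FPKM in si-Cont cells, so that si-Cont replicate 2 held the highest value here too. GLTSCR1L had 2.64, 2.61 and 2.56 FPKM in si-SMARCA4 cells, against 2.05, 2.56 and 1.98 FPKM in si-Cont cells, and was called higher (log2 fold change 0.18, limma adjusted p = 0.0420). That call was lost without a filter (limma adjusted p = 0.147) and without any single library other than si-Cont replicate 2 (0.13 to 0.19, limma adjusted p up to 0.150), and without si-Cont replicate 2 it was 0.26 (limma adjusted p = 0.00104).

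**Figure D2:**
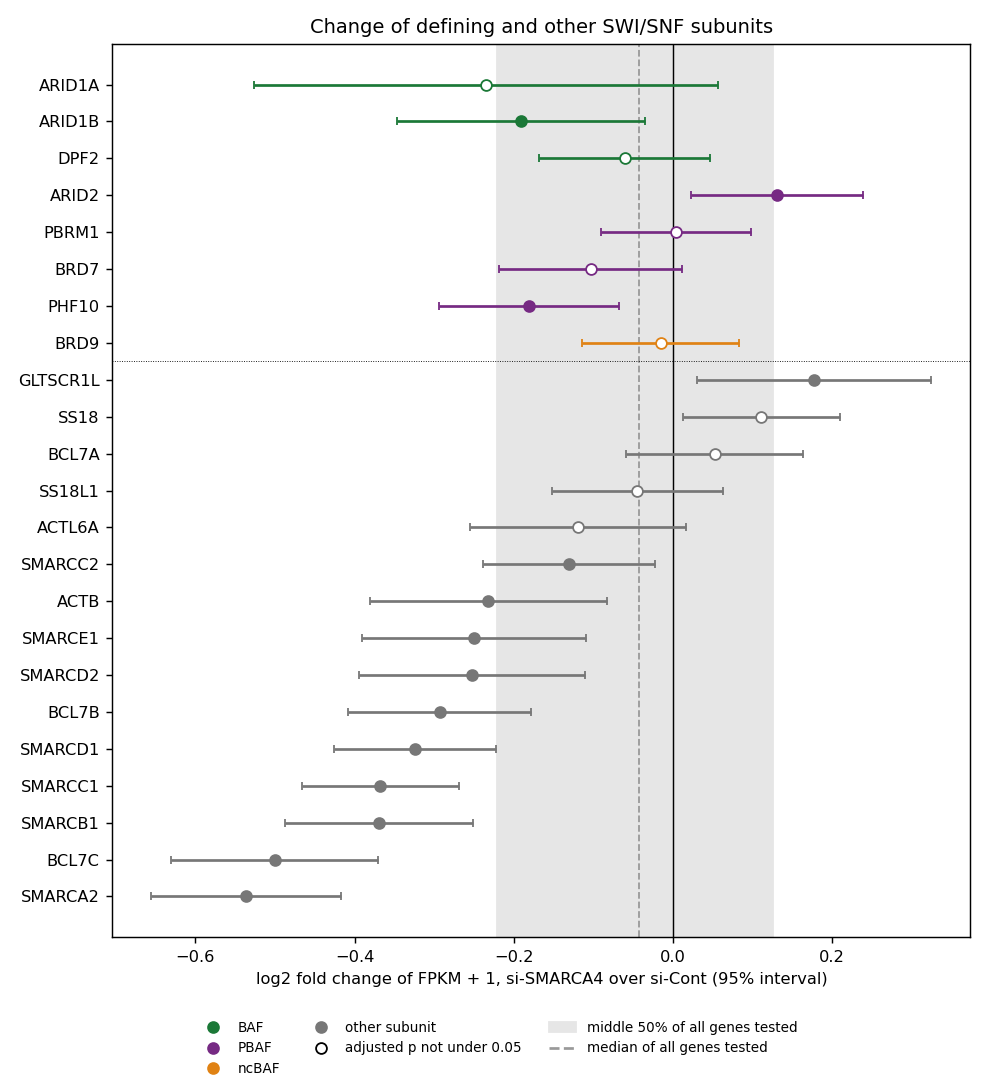
Log2 fold change of FPKM + 1, si-SMARCA4 over si-Cont, with its 95% interval from limma, for the 8 tested defining subunits (coloured by complex) above 15 other SWI/SNF subunits (grey, SMARCA4 left out); filled points passed an adjusted p of 0.05, and the band and dashed line show the middle 50% and the median of all genes tested. The intervals of 5 of the 8 defining subunits cross 0, and ARID2 is the only filled point of the 8 to the right of it.

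FPKM is scaled by gene length, so levels can be set side by side between genes, but only roughly. For BRD7 and PBRM1 the length used, 8492 and 9654 bases, equals all exonic bases of the gene annotated in GENCODE v29. For ARID1A the length used was 9246 against 15928 annotated bases, and for ARID1B 16334 against 44677. PHF10 had 5388 against 5534 bases, and BRD9 had 9577 against 9572. Which transcripts the cells use was not examined, so the order below holds for FPKM and not for numbers of RNA molecules. In si-SMARCA4 cells the order of mean FPKM was BRD7 (5.77), ARID2 (5.73), PBRM1 (5.64), ARID1A (5.03), PHF10 (4.39), BRD9 (3.73), DPF2 (3.50), ARID1B (1.96), DPF3 (0.167) and DPF1 (0.127). The ranges of BRD7, ARID2 and PBRM1 overlapped from one to the next, and every later pair of neighbours lay apart. In si-Cont cells the order was BRD7 (6.28), ARID1A (6.24), PBRM1 (5.62), ARID2 (5.15), PHF10 (5.11), BRD9 (3.78), DPF2 (3.69), ARID1B (2.39), DPF1 (0.244) and DPF3 (0.107). There, the ranges overlapped between BRD7 and ARID1A, ARID1A and PBRM1, ARID2 and PHF10, and BRD9 and DPF2. Thus ARID2 stood above PBRM1 on average in si-SMARCA4 and below it in every library of si-Cont.

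Ratios between members were taken within each library, which makes them independent of the scaling between libraries, and 7 were compared. Their absolute size, like the shares of summed FPKM given below, rests on the gene lengths used. The ratio of ARID1A plus ARID1B to ARID2, a measure of BAF-defining over PBAF-defining ARID mRNA, was 1.16, 1.23 and 1.27 in si-SMARCA4 libraries, against 1.43, 2.03 and 1.53 in si-Cont libraries. The groups did not overlap, and the log2 difference was -0.43 (SE 0.16), or -0.28 without si-Cont replicate 2. The ratio of ARID2 to BRD9 was 1.56, 1.57 and 1.48 in si-SMARCA4 libraries, against 1.33, 1.47 and 1.28 in si-Cont libraries, a log2 difference of 0.17 (SE 0.064). The ratio of PBRM1 to ARID2, both of PBAF, was 0.984, 0.961 and 1.01 in si-SMARCA4 libraries, against 1.13, 1.015 and 1.13 in si-Cont libraries, a log2 difference of -0.15 (SE 0.057). For the ratios of ARID2 to BRD9 and PBRM1 to ARID2, si-Cont replicate 2 all but met the si-SMARCA4 range. Every ratio in this paragraph holds ARID2, so they are not independent of each other.

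PHF10 over DPF2, the double PHD finger subunits of PBAF and BAF, also did not overlap, with a log2 difference of -0.14 (SE 0.085) that was -0.060 without si-Cont replicate 2. Each of these 4 ratios had an exact permutation p = 0.1, the smallest that the design allows, and an adjusted p = 0.175 over the 7 ratios. None can therefore pass a threshold of 0.05 in this design. The other 3 ratios overlapped between groups. ARID1B over ARID1A differed by -0.0044 (SE 0.14, exact permutation p = 0.9), by -0.12 without si-Cont replicate 2 and by 0.11 without si-Cont replicate 1. ARID1A plus ARID1B over BRD9 differed by -0.26 (SE 0.21, exact permutation p = 0.2), by only -0.048 without si-Cont replicate 2 and by -0.37 without si-Cont replicate 1. BRD9 over BRD7 differed by 0.10 (SE 0.061, exact permutation p = 0.2), by 0.068 without si-SMARCA4 replicate 3 and by 0.056 without si-Cont replicate 1. Of the summed FPKM of ARID1A, ARID1B, ARID2 and BRD9, the 2 BAF genes held 41.4%, 42.9% and 43.2% in si-SMARCA4 libraries, against 44.9%, 54.7% and 46.3% in si-Cont libraries.

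**Figure D3:**
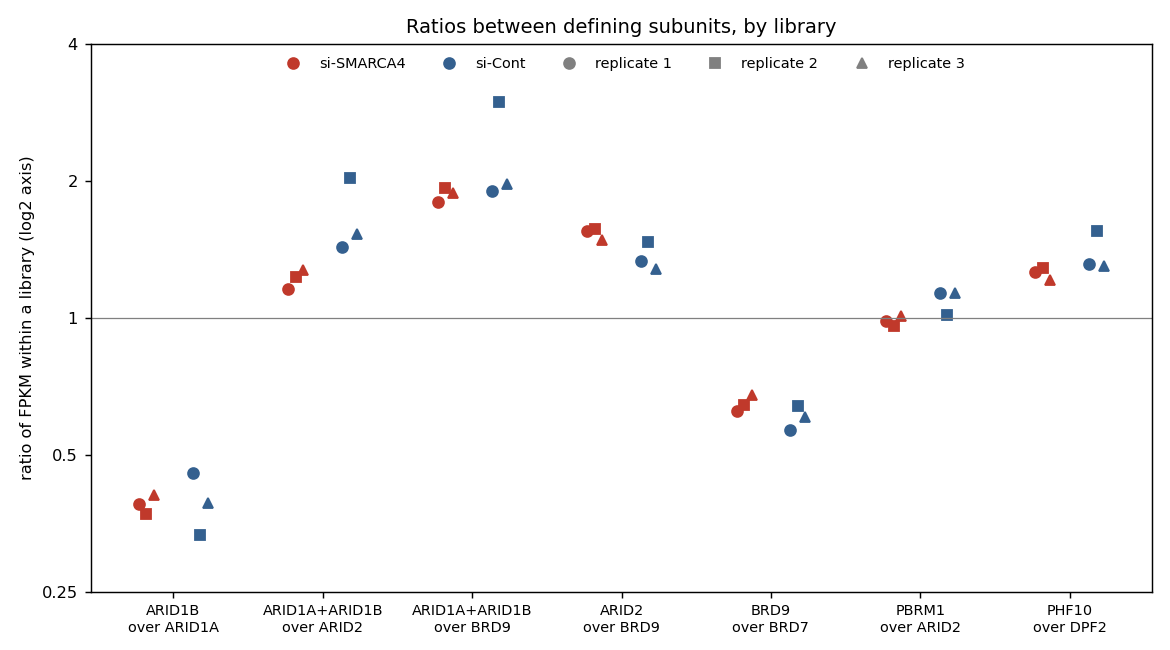
Ratio of FPKM between defining subunits within each library, on a log2 axis, with si-SMARCA4 (red) left of si-Cont (blue) and 1 marker shape per replicate number. The ratio of ARID1A plus ARID1B to ARID2 lies between 1.16 and 1.27 in si-SMARCA4 libraries and between 1.43 and 2.03 in si-Cont libraries.

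The other subunits of the same complexes were listed by membership. Of 20 such genes, SMARCA4 left out, 15 were tested, 10 were called lower and 1 higher (73.3%, against 56.0% of all genes tested), and their median log2 fold change was -0.25. SMARCA2, the alternative ATPase, had 2.11, 2.03 and 2.32 FPKM in si-SMARCA4 cells, against 3.75, 3.42 and 3.54 FPKM in si-Cont cells (log2 fold change -0.54, limma adjusted p = 1.35e-05). BCL7C, an accessory subunit, averaged 2.76 FPKM in si-SMARCA4 and 4.33 FPKM in si-Cont (-0.50). The subunits SMARCB1 and SMARCC1 each fell by 0.37 on the log2 scale. The lists were not tested against each other, so the smaller changes of the defining subunits are a description.

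A 6-base sequence, TGTCCA, was searched on the transcript strand of the longest annotated 3′ UTR of each gene, a sequence picked from earlier results of these libraries, so that its carriers' direction is not independent evidence. Among the tested genes with a 3′ UTR of at least 50 bases, SMARCA4 left out, 2114 (20.5%) held CTGTCCA or TGTCCAA. Of these carriers 44.7% were called lower and 17.3% higher, against 30.6% lower and 24.7% higher of genes with no TGTCCA. Of the 1612 genes with TGTCCA but neither 7-base sequence, 33.4% were called lower and 23.1% higher. The median 3′ UTR length was 2858 bases in carriers of a 7-base sequence, 2366 bases in genes with TGTCCA alone and 934 bases in genes with no TGTCCA. Of the 10 members 2 held such a 7-base sequence, ARID1A and BRD7, both among the 8 tested, against 20.5% of the tested genes above. Their matches are shown because they are the only ones among the members, with the 7 bases in capitals:
ARID1A: ccctgtgCTGTCCAgcttctcc
BRD7: tcacaggtTGTCCAAgttgtct
On GRCh38 they lie at chr1:26780862-26780883 on the forward strand and at chr16:50316486-50316507 on the reverse strand, 114 and 2712 bases into 3′ UTRs of 1354 and 3254 bases. ARID1B and DPF1 held TGTCCA alone, and ARID2, PBRM1, PHF10, BRD9, DPF2 and DPF3 held none. Whether these matches bear on the members' levels was not tested. Which 3′ UTR the cells use was not examined.

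For ARID1A, the tested member with the largest change, the 3 genes with the most similar pattern over the 6 libraries were IQSEC1, NFATC2 and PLBD2, by the root mean square difference of log2(FPKM + 1) deviations from the si-Cont mean (0.018, 0.024 and 0.054). IQSEC1 had 3.09, 3.41 and 3.42 FPKM in si-SMARCA4 cells, against 3.23, 5.54 and 3.63 FPKM in si-Cont cells, with its highest value also in si-Cont replicate 2. NFATC2 was highest in that library too, at 3.06 FPKM, and so was PLBD2, at 5.75 FPKM. These 3 genes were picked for their likeness to ARID1A, so a high value in that library was fixed by the choice. For the tested members other than ARID1A and ARID1B, the log2 difference of si-Cont replicate 2 from the mean of si-Cont replicates 1 and 3 ran from -0.13 for BRD7 to 0.12 for ARID2.

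**Figure D4:**
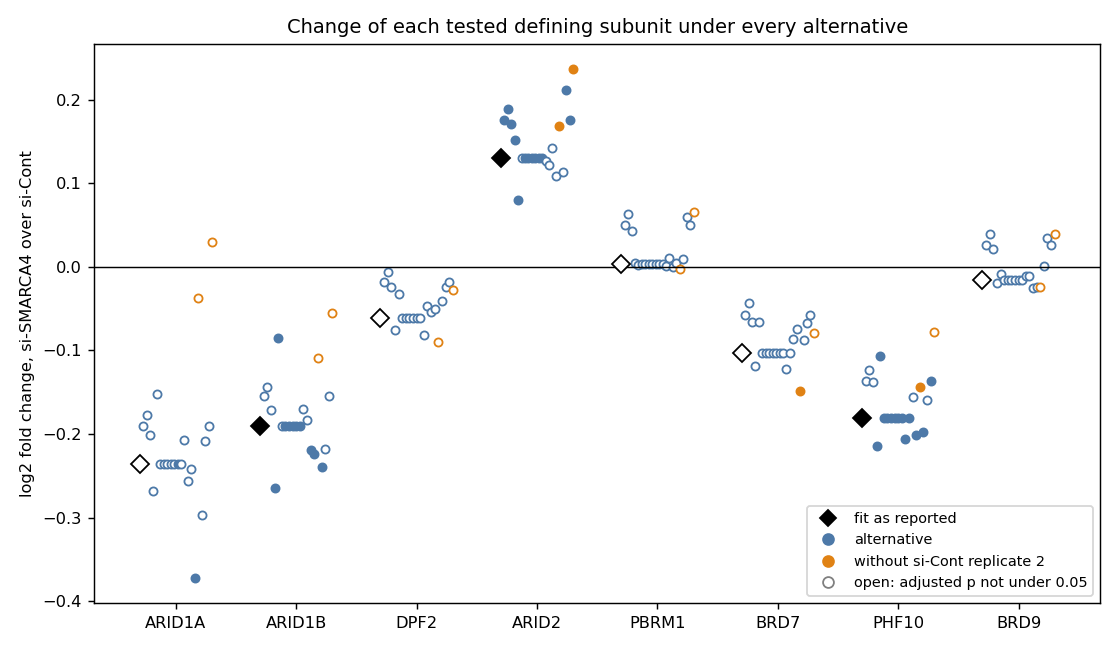
Log2 fold change of each tested defining subunit, si-SMARCA4 over si-Cont, in the fit reported (black diamond) and under each alternative (circles), with fits that leave out si-Cont replicate 2 in orange and open markers where the adjusted p was not under 0.05. ARID2 stays between 0.080 and 0.24, and ARID1A ranges from -0.37 to 0.030.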

How the data were processed

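The authors deposited 1 table of FPKM for 57773 genes, with 1 column for each of 6 libraries. Per the submitters' processing notes, the genome build is hg19. The sources used here do not give the aligner, counter, annotation, strandedness or any filter. Groups and replicate numbers came from the sample titles. The members and lists were chosen with earlier results of these data known. Of rows that share a symbol after removal of a running number, the row with the highest mean was kept, and no member's symbol carried such a number.

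FPKM values were whole multiples of 1 read's worth in all 25119 genes with a mean above 0, which gave whole reads and gene lengths. For 25072 of these genes the tolerance was 5e-06 of a read or, where larger, 1e-08 of the number of reads. A looser tolerance was used for the rest. No molecular identifiers are recorded, so reads are not counts of single molecules, and their number bears on counting error alone. Genes averaging 1 FPKM or more were compared on log2(FPKM + 1) with limma 3.58.1 in R 4.3.3 (trend, Benjamini-Hochberg), after a test on simulated data. Exact permutation tests, two-sided, used scipy 1.17.1. Same-numbered libraries deviated together (correlations of 0.215, 0.181 and 0.162), so a replicate block was compared. Named genes were all members, SMARCA4, SMARCA2, GLTSCR1, GLTSCR1L, at most the 4 largest calls without overlap in each direction among other subunits, and the 3 genes most like the member with the largest change. Tests that model raw counts were planned and not run, since the deposited unit is FPKM; voom on the recovered reads, DPF1 and DPF3 without a filter under other scalings, and combinations with median-ratio scaling were added after seeing the data. 3′ UTRs came from GENCODE v29 on GRCh38. Protein sequences were not used here.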

Additional observations from a re-analysis of the deposited data

How the results depend on the processing

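Median-ratio, upper-quartile and quantile scaling moved the median log2 change of all genes from -0.043 to 0.00046, 0.014 and 0.0066, and the share of calls that were higher from 40.1% to 49.5%, 52.2% and 50.5%. Under these 3 scalings, under voom and among genes averaging 5 FPKM or more, which leaves out ARID1B and PHF10, 0 members were called lower; median-ratio scaling without si-Cont replicate 2 also gave 0, and with the replicate block gave 1. Leaving out single libraries gave 1 to 3 members lower and 0 to 1 higher. Of all 11123 genes tested, these fits called 3050 to 4520 lower and 2040 to 2621 higher. ARID1B was not called under median-ratio (-0.16), upper-quartile (-0.14) or quantile scaling (-0.17), without a filter (-0.19), with voom (-0.22), with the block and median-ratio scaling (-0.16) or with median-ratio scaling without si-Cont replicate 2 (-0.055), and ranged from -0.24 to -0.11 over left-out libraries. PHF10 was not called under the same scalings (-0.14, -0.12 and -0.14), with voom (-0.16) or with median-ratio scaling without si-Cont replicate 2 (-0.078), and ranged from -0.21 to -0.14 over left-out libraries. ARID2 was not called without a filter (0.13) and ranged from 0.11 to 0.17 over left-out libraries. ARID1A was called with the block (-0.24), turned to 0.030 with median-ratio scaling without si-Cont replicate 2, and ranged from -0.37 to -0.037. BRD7 ranged from -0.15 to -0.074 and PBRM1 from -0.0024 to 0.010. BRD9 turned to 0.027, 0.040 and 0.021 under the 3 scalings, 0.034 with voom, 0.027 with the block and median-ratio scaling and 0.039 with median-ratio scaling without si-Cont replicate 2, and ranged from -0.025 to 0.0016 over left-out libraries. The ratio of ARID1B to ARID1A turned to 0.0033 with 0.1 FPKM added and ranged from -0.12 to 0.11. When genes under 5 FPKM were left out, 3683 of the 6120 genes tested were called, 1387 higher and 2296 lower. In the fit reported, 6227 of 11123 were called. Among the other subunits 2, 3 and 2 were higher under the 3 scalings, and 2 with voom and with either combination. Without genes under 5 FPKM 0 were higher, and over left-out libraries 0 to 1. Of all genes, 29.2%, 30.8% and 30.1% were called higher under the 3 scalings and 29.8% with voom, against 22.4% in the fit reported. The replicate block, whose pairing rests on the correlations of deviations, changed the call of no tested member but ARID1A; added to median-ratio scaling, it restored the PHF10 call (limma adjusted p = 0.0432). With ratios the exact sign-flip test of 3 pairs could not go below p = 0.25. The causes of these moves were not tested.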

Other observations

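Among subunits known from the SWI/SNF complexes of neurons, levels ran from 0 to a few FPKM in these cells; those named here were chosen after their values were seen. ACTL6B, the neuronal counterpart of ACTL6A, was listed at 0 in all 6 libraries, and SS18L1, the counterpart of SS18, averaged 3.37 FPKM in si-SMARCA4 and 3.51 FPKM in si-Cont, with groups that overlapped. BCL11B had 0 to 3 reads per library. BCL11A had 0.393, 0.334 and 0.328 FPKM in si-SMARCA4 cells, against 0.495, 0.622 and 0.453 FPKM in si-Cont cells, so that the groups did not overlap (exact permutation p = 0.1), and it was not called when all genes were fitted (limma adjusted p = 0.0555). SMARCD3, a core subunit paralog known from muscle and heart, had 0.683, 0.739 and 0.724 FPKM in si-SMARCA4 cells, against 0.905, 0.885 and 1.02 FPKM in si-Cont cells, and in that fit was called lower (limma adjusted p = 0.0415). All of these genes other than SS18L1 were under the filter on low values.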
